A study of Saccharomyces cerevisiae with 12 samples.

Results

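Expression in 3 evolved budding yeast mutants, labelled E62A, E62B and E62C, was set as an average against their reference, labelled REF, to find the genes that moved the same way in all 3. The comparison took the mean of the 3 group means minus the REF mean, from the 6 evolved arrays and 2 REF arrays among the 12 Affymetrix arrays of the series. A gene was called consistent when this pooled difference passed the test and all 6 evolved arrays lay on 1 side of both REF arrays. Of 5449 genes tested, 35 were consistent, 14 higher and 21 lower than REF. For E62B alone against REF, 0 of the 35 passed, so a change in E62B is not shown for any of them. E62A, E62B and E62C mark mutants selected by long cultivation on galactose, as known from the study, and the labels do not say whether each is a single clone. The groups SO16 and PGM2, with 2 arrays each, are engineered strains. What is known of the study gives SO16 as made by deletion of GAL80, MIG1 and LAP3 and PGM2 as overexpressing the gene PGM2. All 6 groups share a haploid laboratory background, CEN.PK113-7D, a minimal medium with galactose, fermenters at pH 5 and sampling in mid exponential growth. Values are log2 levels of the robust multi-array average (RMA), and differences are in log2 units ± the standard error (SE) of a limma fit to all 12 arrays, with 2 arrays per group.

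Budding yeast takes up galactose through the permease Gal2 and turns it into glucose 1-phosphate by the Leloir pathway, after which phosphoglucomutase feeds it into glycolysis. Growth and stress genes are balanced by the Ras and cyclic AMP pathway. Its kinase, protein kinase A, holds back the activators Msn2 and Msn4, which otherwise switch on stress defence, glycogen and trehalose genes. Strains evolved side by side in 1 medium can reach similar growth through different mutations, so the genes shared by all of them and the genes that differ are separate questions.

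Some arrays need care. PGM2, the major phosphoglucomutase, lay at 13.43 and 13.19 on the arrays labelled E62C, at 10.49 and 10.87 on those labelled PGM2 and at 12.14 and 12.11 on the REF arrays. The engineered label thus goes against its own gene, so E62C and PGM2 are named here as arrays labelled so, and counts are also given without E62C. URA3 also lay at 12.12 and 12.34 on the arrays labelled E62C, against 9.73 and 9.79 on REF. YGL007C-A lay at 13.48 and 13.09 there, against 7.75 and 7.80 on REF, and no other group was high in either gene. Whether the arrays labelled E62C hold the evolved or the engineered strain was not tested, and "all 3 evolved groups" means the 3 labels. GAL80, MIG1 and LAP3 were each at or below 6.29 on the SO16 arrays, against 9.20 or more on REF, as that label calls for. E62C replicate 2 and SO16 replicate 2 had E. coli hybridisation controls averaging 8.73 and 8.71, against 9.89 to 11.4 on the other 10 arrays, and ribosomal RNA probe sets at 10.7 and 10.4, against 8.26 to 9.40. All 7 measured genes of mating type a, the mating type of this strain, were above the background level of 6.002 on every array. So were all 4 measured genes of mating type alpha, so this check does not tell the mating types apart. Whether both arrays of each group stem from their own cultures is not stated, so the spread behind every p value may be technical, and it is not the spread between evolved strains. Precision is limited by the small number of arrays.

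The pooled comparison asked what the 3 evolved groups had in common. It called 198 genes by limma at an adjusted p under 0.05, which is 3.63% of those tested, 67 higher (1.23%) and 131 lower (2.4%). An unadjusted p under 0.05 was seen for 819 genes (15%). Alone against REF, 683 genes (12.5%) passed for E62A, 534 (9.8%) for E62C and 0 (0%) for E62B, where adjusted p values began at 0.111 and an unadjusted p under 0.05 was seen for 97 genes (1.78%). Among the 198 genes, E62A had the largest of the 3 differences in 113 and E62C in 85, and E62B in 0. Signed so that positive means the pooled direction, the median difference over the 198 genes was 0.70 in E62A, -0.01 in E62B and 0.59 in E62C, and 101 genes lay on the opposite side of REF in E62B. These comparisons share the REF arrays and enter the pooled value. Over all genes the differences from REF had a standard deviation of 0.264 in E62A, 0.0929 in E62B and 0.257 in E62C. Replicate 1 minus replicate 2 had a standard deviation over genes of 0.0919 in E62A, 0.0989 in E62B, 0.139 in REF and 0.210 in E62C. In SO16 and PGM2 it was 0.183 and 0.181. The fit uses 1 spread per gene for all groups, so the count of 0 does not show that E62B was unchanged. The part of the shared spread in that count was not tested.

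**Figure D1:**
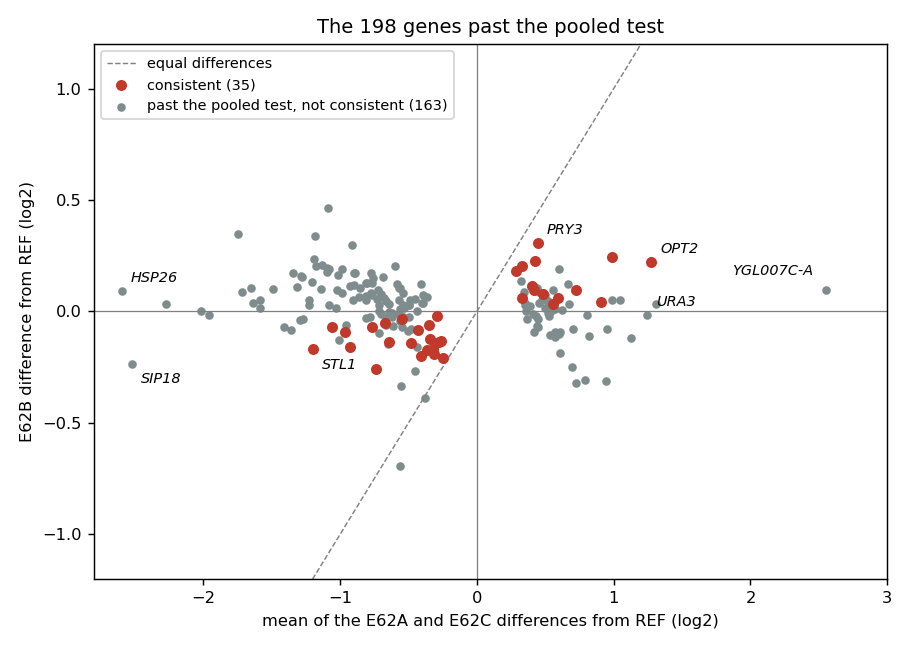
The 198 genes past the pooled test, with the mean of the E62A and E62C differences from REF on the horizontal axis and the E62B difference on the vertical axis, both in log2 units. Red points are the 35 consistent genes and grey points the other 163, and the dashed line marks equal differences. Points lie flat along the horizontal axis, with E62B differences between -0.69 and 0.46, and YGL007C-A, which is high on the arrays labelled E62C alone, lies farthest to the right.

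Whether the evolved groups differed from each other was tested directly, in a comparison that does not use REF. By the limma F test, 1210 of 5449 genes (22.2%) differed among E62A, E62B and E62C. In pairs, 676 genes (12.4%) differed between E62A and E62B, 657 (12.1%) between E62C and E62B and 970 (17.8%) between E62C and E62A. Of the 198 genes of the pooled comparison, 192 (97%) differed among the evolved groups. The same evolved arrays chose the 198 genes, so this count is a description from which nothing is read.

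The average also depends on which groups enter it. Without the arrays labelled E62C, 179 genes passed and 65 were consistent over E62A and E62B, with 24 of the 35 among them. Without E62A, 58 genes passed and 9 were consistent, with 3 of the 35 among them. Without E62B, 452 genes passed and 391 were consistent over E62A and E62C, including all 35. Single arrays mattered as well. Without REF replicate 1, 81 genes passed and 28 were consistent, 13 of them from the 35. Without REF replicate 2, 85 passed and 28 were consistent, 11 of them from the 35. Without the weak arrays E62C replicate 2 and SO16 replicate 2, 471 genes passed and 129 were consistent, including all 35. With each group taken as 1 replicate, so that the spread between evolved strains sets the error, 0 genes passed by limma, adjusted p values began at 1.00 and 5 genes reached an unadjusted p under 0.05.

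**Figure D2:**
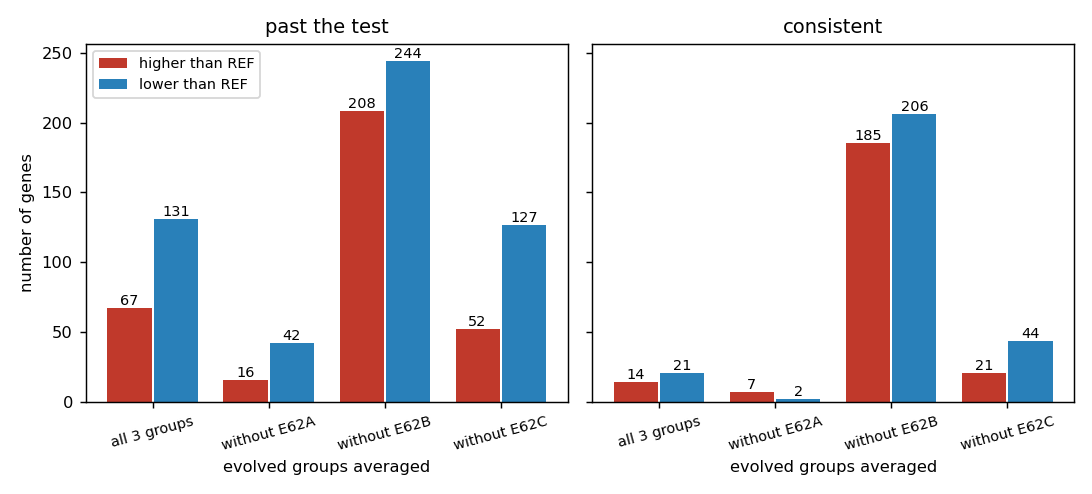
Number of genes past the pooled test (left) and number consistent (right) when all 3 evolved groups are averaged or 1 is left out, with genes higher than REF in red and lower in blue. The tallest bars, 208 higher and 244 lower past the test, are those without E62B, and the shortest, 16 and 42, those without E62A.

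The 35 consistent genes are 0.642% of the genes tested. They are drawn from the 198 called genes, of which 0 passed for E62B alone. How often array spread alone puts both E62B arrays on the pooled side of REF was not tested. Non-overlap of the 6 evolved with the 2 REF arrays alone was met by 287 genes (5.27%), 173 above (3.17%) and 114 below REF (2.09%), and this count alone is not read as a shared response. That split is sensitive to scaling, and centring each array on its median gave 151 above and 167 below. Another 252 genes did not overlap but failed the pooled test. Their median pooled difference was 0.15 in size. The same sign in all 3 groups was shared by 1902 genes (34.9%), and by 84 of the 198 called. The 3 differences share the REF arrays, so no sharing between the groups is read from these signs. Since the values of these arrays chose the 35 genes, their differences are given here as a description. The pooled differences ranged from 0.20 to 0.93 in size, with a median of 0.36. Signed in the pooled direction, the medians over the 35 were 0.53 in E62A, 0.13 in E62B and 0.37 in E62C, and no gene had its largest difference in E62B. By the F test, which leaves REF out but shares the residual spread, 29 of the 35 (82.9%) differed among the evolved groups. The same evolved arrays chose the 35, so that share is also a description. The other 6 were CHM7, PRY2, PUT1, RMT2, SAM3 and YCR087C-A. The gap between the nearest evolved array and the nearest REF array was small, from 0.0008 for YOL164W-A to 0.19 for PLB2, with a median of 0.04. At the edge of the threshold, TRM9 and FAT3 lay just inside, with adjusted p values of 0.0457 and 0.0479 by limma, and DAL5 and YPR127W just outside, both at 0.0504. TRM9 and FAT3 overlapped REF on E62B arrays, so none of the 4 is consistent.

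**Figure D3:**
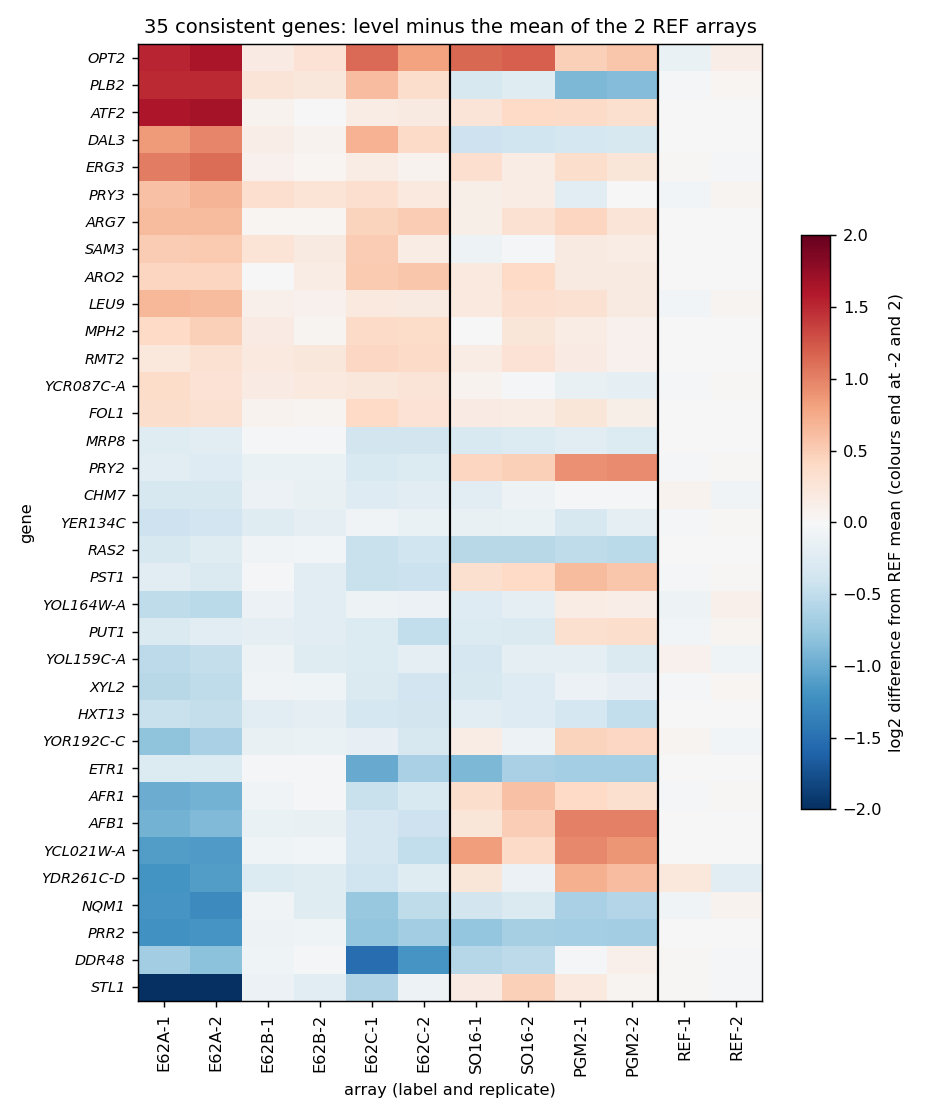
Level of each of the 35 consistent genes on each array minus the mean of the 2 REF arrays, in log2 units, with rows ordered by the pooled difference and the engineered and REF arrays to the right of the evolved ones. The E62A columns carry the strongest colours and the E62B columns are pale in every row, between -0.27 and 0.33.

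Of the 35 genes, 8 passed the pooled test whichever single array was left out, and 3 of these, OPT2, PRR2 and DDR48, also passed whichever group was left out. The same arrays chose the 35 genes, so these repeats are a description, and passing them does not show a change in each group. For E62B alone the unadjusted limma p values were 0.0775 for OPT2, 0.162 for PRR2 and 0.519 for DDR48. OPT2, of the oligopeptide transporter family, had levels of 11.31 and 11.41 in E62A, 9.94 and 10.06 in E62B and 10.91 and 10.58 in E62C, against 9.64 and 9.91 in REF. It was 1.90-fold higher in the pooled comparison (0.93 ± 0.09, adjusted p = 1.89e-04 by limma). All 6 evolved arrays were above REF, though the lowest E62B array cleared the higher REF array by only 0.02. PRR2, a protein kinase linked to pheromone signalling, lay at 6.97 and 7.00 in E62A, 8.08 and 8.10 in E62B and 7.41 and 7.48 in E62C, against 8.18 and 8.19 in REF. Its pooled difference was -0.68 ± 0.05 (adjusted p = 2.93e-05), and the 3 groups stood in separate steps below REF. DDR48, a stress protein induced by DNA damage and heat, lay at 11.16 and 11.04 in E62A, 11.77 and 11.81 in E62B and 10.33 and 10.68 in E62C, against 11.88 and 11.83 in REF. Its pooled difference was -0.73 ± 0.08 (adjusted p = 4.33e-04). Here E62C was lowest, E62A next and E62B just under REF.

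**Figure D4:**
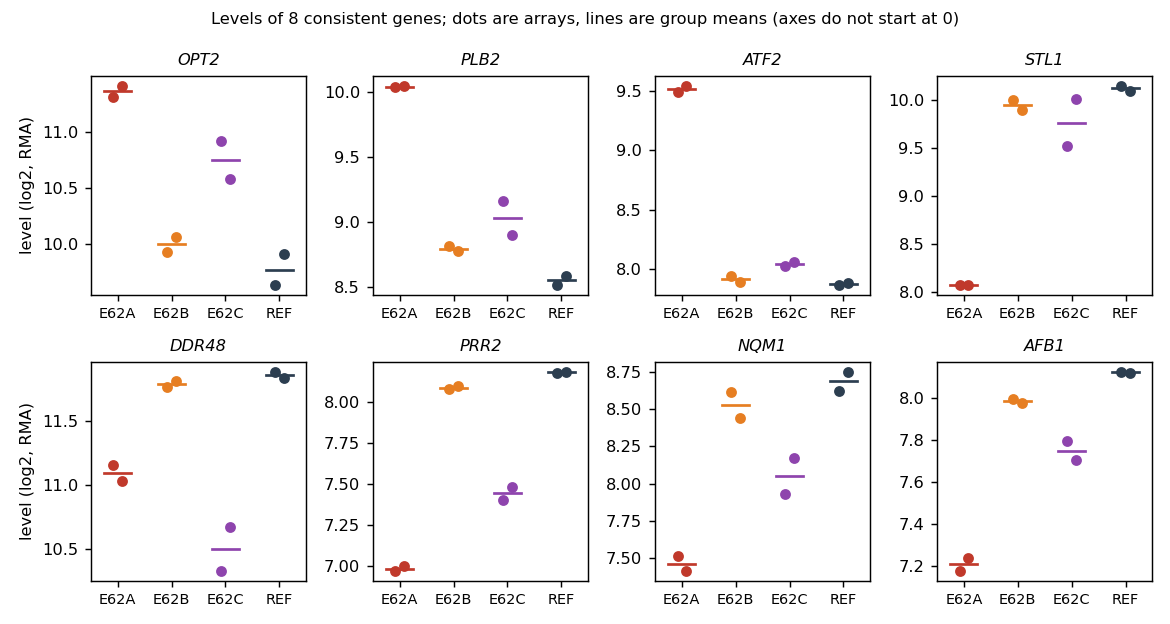
Levels (log2, RMA) of the 8 consistent genes that passed the pooled test whichever array was left out, with dots for arrays and lines for the means of 2 arrays. In every panel E62B lies nearest to REF, and E62A is farthest from it in all but DDR48.

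Genes of uptake and nitrogen use were among the 35 in both directions, and were grouped after the 35 were known. Of 23 measured nitrogen catabolite genes, 4 were called higher and 2 lower, where 1.23% and 2.4% of all genes were. In that list OPT2 and DAL3, higher, and PUT1, lower, were consistent, where 0.642% of all genes were. No enrichment is read from these counts. SAM3, the permease of S-adenosylmethionine, lay at 10.97 and 10.97 in E62A, 10.72 and 10.64 in E62B and 10.97 and 10.60 in E62C, against 10.45 and 10.45 in REF. It differed by 0.36 ± 0.08, and its 3 group differences could not be told apart (F test adjusted p = 0.122 by limma). DAL3, an enzyme of allantoin breakdown, differed by 0.51 ± 0.08, from levels of 9.77 and 9.90 in E62A, 9.05 and 8.99 in E62B and 9.62 and 9.30 in E62C, against 8.91 and 8.93 in REF. PUT1, proline oxidase, went the other way by -0.28 ± 0.06, with E62B at -0.19 and E62C at -0.38. MPH2, an alpha-glucoside permease measured by a probe set that near-identical genes share, differed by 0.31 ± 0.07. With the mean of its probe sets MPH2 did not pass. HXT13, of the hexose transporter family, lay at 6.04 and 6.01 in E62A, 6.28 and 6.31 in E62B and 6.14 and 6.13 in E62C, against 6.48 and 6.51 in REF. The difference of -0.34 ± 0.05 lies close to the background of 6.002, and with the mean of its probe sets HXT13 was at -0.23 and did not pass (adjusted p = 0.0653 by limma). STL1, the glycerol symporter, had 8.08 and 8.08 in E62A, 9.999 and 9.89 in E62B and 9.51 and 10.01 in E62C, against 10.14 and 10.09 in REF. Its pooled value of -0.85 ± 0.12, the lowest of the 35, came mostly from E62A at -2.04, and without E62A it was -0.26 (adjusted p = 0.644 by limma).

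Some enzymes of amino acid and cofactor synthesis among the 35 were on the higher side. They were grouped after the 35 were known, so no enrichment is read from the grouping. ARG7, of arginine synthesis, ARO2, chorismate synthase, and LEU9, an isoform of the first leucine enzyme, differed by 0.38 ± 0.06, 0.35 ± 0.06 and 0.31 ± 0.06. ARG7 lay at 11.17 and 11.16 in E62A, 10.56 and 10.57 in E62B and 10.97 and 11.03 in E62C, against 10.53 and 10.53 in REF. In E62B it was thus 0.03 from REF, and after each of 3 other scalings of the arrays the E62B levels of ARG7 and ARO2 overlapped REF. RMT2, an arginine methyltransferase of the ribosome, is not a synthesis enzyme, and it was more even over the evolved groups than these enzymes. It lay at 9.34 and 9.43 in E62A, 9.31 and 9.35 in E62B and 9.54 and 9.50 in E62C, against 9.14 and 9.11 in REF (0.29 ± 0.06, F test adjusted p = 0.139 by limma). FOL1, of folate synthesis, differed by 0.24 ± 0.05. Of 39 measured Gcn4 targets of amino acid synthesis, 6 were called higher, where 1.23% of all genes were, and 0 lower. Their pooled median was 0.16 against 0.01 over all genes. Among them 2, ARO2 and LEU9, were consistent, where 0.642% of all genes were. The list medians were 0.24 in E62A, 0.00 in E62B and 0.23 in E62C.

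Some of the 35 genes act on lipids or sterols, in both directions. They were grouped after the 35 were known, and such genes were not counted over all genes, so no enrichment is read from them. ATF2, an alcohol acetyltransferase that also acetylates sterols, had 9.49 and 9.54 in E62A, 7.94 and 7.89 in E62B and 8.03 and 8.06 in E62C, against 7.87 and 7.88 in REF. The pooled 0.62 ± 0.06 was an E62A difference of 1.64, with 0.04 in E62B and 0.17 in E62C. Without E62A it was 0.10 (adjusted p = 0.747 by limma). ERG3, the C-5 sterol desaturase, had the same shape, with differences of 1.07 in E62A, 0.06 in E62B and 0.11 in E62C. E62B levels of ATF2 and ERG3 overlapped REF after each of the 3 other scalings. Of 25 measured ergosterol genes 3 were called higher, where 1.23% of all genes were, and 0 lower, 1 was consistent, where 0.642% of all genes were, and the medians were 0.42 in E62A, 0.02 in E62B and 0.11 in E62C. PLB2, a phospholipase B, was higher by 0.74 ± 0.07, at 10.04 and 10.05 in E62A, 8.81 and 8.78 in E62B and 9.16 and 8.90 in E62C, against 8.52 and 8.59 in REF. It had the widest gap of the 35 between evolved and REF arrays. The sterol-binding secreted proteins PRY3 and PRY2 moved in opposite directions. PRY3 lay at 10.30 and 10.38 in E62A, 10.04 and 9.99 in E62B and 10.04 and 9.90 in E62C, against 9.65 and 9.77 in REF (0.40 ± 0.07), and its E62B difference of 0.31 was the largest of that group among the 35. PRY2 differed by -0.22 ± 0.05, and its evolved groups could not be told apart (F test adjusted p = 0.163). ETR1, of mitochondrial fatty acid synthesis, differed by -0.38 ± 0.09, mainly in E62C at -0.83.

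AFB1 and AFR1, both lower, are tied to mating, and were likewise grouped after the 35 were known. AFB1, which blocks the pheromone a-factor and is known as a gene of mating type alpha, lay at 7.18 and 7.24 in E62A, 7.998 and 7.98 in E62B and 7.79 and 7.71 in E62C, against 8.13 and 8.12 in REF (-0.48 ± 0.07). AFR1, which acts in the shape change and adaptation to pheromone, lay at 8.18 and 8.22 in E62A, 9.10 and 9.14 in E62B and 8.73 and 8.86 in E62C, against 9.14 and 9.20 in REF (-0.46 ± 0.07). Its nearest arrays were 0.0028 apart. Of the 7 genes of mating type a, 5 were called lower in the pooled comparison, where 2.4% of all genes were. In that list 0 were consistent, where 0.642% of all genes were. Their mean level was 10.06 to 10.11 in E62A, 10.97 to 11.05 in E62B and 10.43 to 10.60 in E62C, against 10.89 to 10.97 in REF. The 4 genes of mating type alpha averaged 6.9 to 7.01 in E62A, 7.70 to 7.80 in E62B and 7.46 to 7.52 in E62C, against 7.60 to 7.73 in REF. E62B was not below REF in the type a list and overlapped it in the alpha list, and the part of these shifts in the values of AFB1 and AFR1 was not tested. PST1, a cell wall protein, differed by -0.27 ± 0.06, with E62B replicate 2 at 10.93 and E62B replicate 1 at 11.09, close under the REF values of 11.11 and 11.15. It was the only consistent gene of 25 measured wall genes, of which 4 were called lower and 0 higher, where 2.4% of all genes were called lower and 0.642% were consistent.

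RAS2, which encodes a Ras protein that activates adenylate cyclase, was consistent as well. It lay at 10.51 and 10.59 in E62A, 10.76 and 10.77 in E62B and 10.37 and 10.43 in E62C, against 10.83 and 10.82 in REF, a difference of -0.26 ± 0.05 (adjusted p = 0.0133 by limma). The 2 REF arrays were nearly equal, and E62B was lower by 0.06 ± 0.06 (unadjusted p = 0.317 by limma). RAS2 passed in 5 of the 8 fits that left out 1 array. Without the arrays labelled E62C the difference was -0.17 and did not pass (adjusted p = 0.138). RAS2 was the only 1 of 20 measured genes of the Ras and cyclic AMP pathway that passed the pooled test, a share near the 3.63% of all genes. NQM1, a transaldolase isoform, lay at 7.51 and 7.41 in E62A, 8.61 and 8.44 in E62B and 7.93 and 8.17 in E62C, against 8.62 and 8.75 in REF (-0.67 ± 0.08). XYL2, xylitol dehydrogenase, differed by -0.32 ± 0.05. Of 11 measured pentose phosphate genes 4 were called lower, where 2.4% of all genes were, and 0 higher. Among them 1, NQM1, was consistent, where 0.642% of all genes were.

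The remaining consistent genes have small differences or little known function. YDR261C-D, a reading frame of a Ty retrotransposon, lay at 7.43 and 7.51 in E62A, 8.35 and 8.37 in E62B and 8.22 and 8.38 in E62C, against 8.83 and 8.42 in REF. Its REF arrays were 0.41 apart and its probe set is shared, so the signal of the many Ty copies cannot be told apart. YCL021W-A differed by -0.54 ± 0.10 and YOR192C-C by -0.37 ± 0.08, with E62A farthest from REF in each. YCR087C-A was even over the groups, at 0.33 in E62A, 0.18 in E62B and 0.24 in E62C. YOL159C-A (-0.30 ± 0.07) and YOL164W-A (-0.27 ± 0.06) are near 1 end of chromosome XV in assembly R64, 6 genes apart, the shortest such distance among the 35. YER134C, CHM7 and MRP8 differed by -0.24 ± 0.06, -0.23 ± 0.05 and -0.20 ± 0.05. Like YOL164W-A, each of them passed in only 1 of the 8 fits that left out 1 array. SAM3, MPH2, FOL1, PRY2, PUT1, YOL159C-A and ETR1 each passed in only 2 of the 8.

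The largest pooled differences belonged to genes that were not consistent. SIP18, a hydrophilin of desiccation tolerance, lay at 7.26 and 7.16 in E62A, 9.87 and 9.49 in E62B and 7.36 and 7.79 in E62C, against 10.01 and 9.81 in REF (-1.76 ± 0.12). HSP26, a small heat shock protein, lay at 9.85 and 9.99 in E62A, 12.77 and 12.66 in E62B and 9.93 and 10.33 in E62C, against 12.58 and 12.66 in REF (-1.70 ± 0.10). EGO4, DDR2 and HSP12 followed with -1.51 ± 0.14, -1.34 ± 0.10 and -1.31 ± 0.12. Their E62B differences were 0.03, 0.00 and -0.01. Of 30 measured targets of Msn2 and Msn4, 16 were called lower, where 2.4% of all genes were, and 0 higher. In that list 0 were consistent, where 0.642% of all genes were. The list medians were -0.55 in E62A, 0.06 in E62B and -0.63 in E62C. By the F test 29 of the 30 differed among the evolved groups, where 22.2% of all genes did. Of 19 glycogen and trehalose genes, 10 were called lower, where 2.4% of all genes were, and 0 were consistent, where 0.642% of all genes were. Their medians were -0.39, 0.05 and -0.53 in the same order of groups. On the higher side, MEP2, an ammonium permease, lay at 12.47 and 12.61 in E62A, 10.95 and 10.95 in E62B and 11.92 and 11.88 in E62C, against 10.85 and 10.98 in REF (0.88 ± 0.11). OPT1, an oligopeptide transporter (0.72 ± 0.11), and ARO9, an aromatic aminotransferase (0.71 ± 0.11), had the same shape.

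Other pooled calls came from 1 group. YGL007C-A, a short reading frame, lay at 7.41 and 7.34 in E62A, 7.90 and 7.84 in E62B and 13.48 and 13.09 on the arrays labelled E62C, against 7.75 and 7.80 in REF. The pooled 1.74 ± 0.09 was the largest rise of all, and without E62C the value was -0.15 (adjusted p = 0.302 by limma). URA3, of pyrimidine synthesis and often used as a selection marker, lay at 9.73 and 9.81 in E62A, 9.76 and 9.73 in E62B and 12.12 and 12.34 on the arrays labelled E62C, against 9.73 and 9.79 in REF. Its pooled 0.82 ± 0.07 became 0.00 without E62C.

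**Figure D5:**
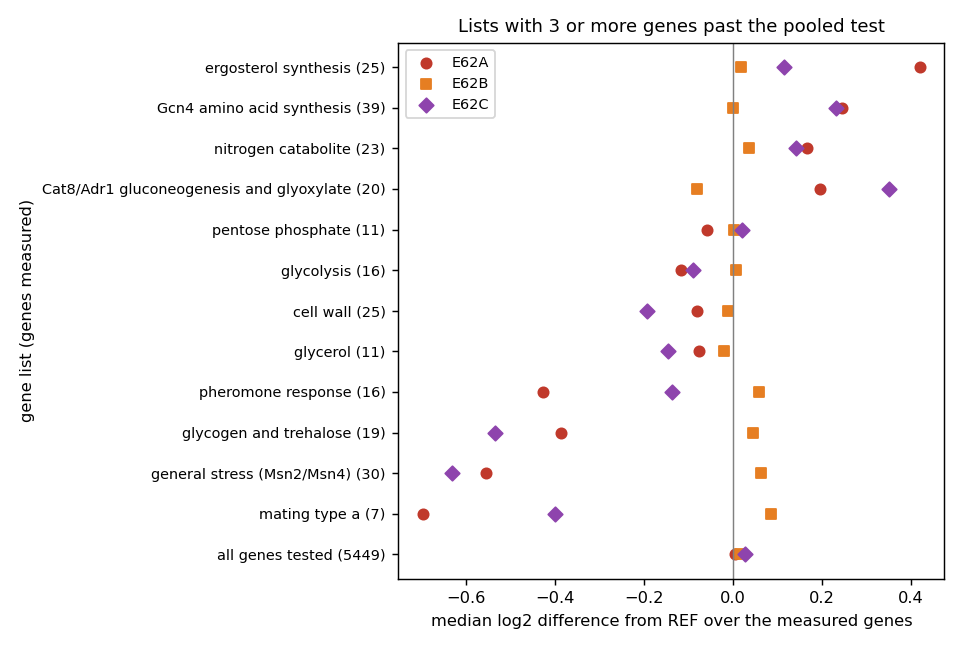
Median log2 difference from REF over the measured genes of each list with 3 or more genes past the pooled test, for E62A (circles), E62B (squares) and E62C (diamonds), with all genes tested at the bottom. E62B stays within 0.09 of 0 in every list shown, while E62A and E62C reach -0.70 for mating type a genes and -0.63 for Msn2 and Msn4 targets.

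The galactose pathway gave no pooled call among its main members. GAL1, GAL2, GAL7 and GAL10 lay above 13.2 on every array, near the top of the scale, and their pooled differences were -0.02 ± 0.06, 0.005 ± 0.07, -0.03 ± 0.06 and -0.05 ± 0.07. GAL3, the galactose sensor, differed by 0.12 ± 0.06 and GAL80, the repressor that the sensor relieves, by -0.03 ± 0.07. PGM2 averaged out. Its differences were -0.72 in E62A, 0.03 in E62B and 1.185 on the arrays labelled E62C, which gave a pooled 0.16 ± 0.09 (adjusted p = 0.484 by limma), although the 3 groups differed by the F test (adjusted p = 2.25e-06). Without E62C it was -0.35. PGM1, ERG5 and PMA1, at 0.17 ± 0.07, 0.16 ± 0.08 and -0.11 ± 0.06, did not pass either, and each differed among the evolved groups. Of 46 ribosome biogenesis and 127 cytosolic ribosomal protein genes, 0 passed, where 3.63% of all genes did. Their pooled medians were 0.10 and 0.00, against 0.01 over all genes. Of 35 measured respiratory and ATP synthase subunits, 0 passed, against the same 3.63% (median -0.05). No lack of change is read from these counts.

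The evolved arrays were last set against the engineered ones, with each array taken by its label. The difference was the mean of E62A, E62B and E62C minus the mean of SO16 and PGM2, which leaves REF out. Of the 35 genes 21 passed, against 19.2% of all genes, and since evolved levels chose the 35, no more is read from that count. PLB2 was 1.32 higher in the evolved mean, with 8.23 and 8.30 in SO16 and 7.65 and 7.68 on the arrays labelled PGM2, all below REF. DAL3 was 0.89 higher. AFB1, AFR1 and YCL021W-A were lower in the evolved mean by log2 differences of -1.16, -0.88 and -1.30, and both engineered groups lay above REF in all 3. PRY2 had 12.40 and 12.44 in SO16 and 12.88 and 12.91 on the arrays labelled PGM2, above REF, while the evolved arrays lay below it (difference -0.91). For RAS2 both the evolved and the engineered arrays lay below REF. The engineered arrays lay at 10.27 to 10.32, below all 6 evolved arrays (evolved minus engineered 0.28 ± 0.04, adjusted p = 3.89e-04 by limma). OPT2, PRR2 and HXT13 did not differ past the threshold, at 0.08 ± 0.07, 0.03 ± 0.04 and -0.02 ± 0.04, and the engineered arrays lay on the same side of REF as the evolved ones.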

How the data were processed

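Per the labels and the submitters' processing notes, the authors hybridised 12 Affymetrix arrays and summarised them by RMA with the affy package, and the deposited values are log2 levels, from 5.42 to 14.4. Software versions: not given in the sources used here. Of 10928 probe sets, 7244 had 1 gene symbol, 1 had several and 3683 had none, and 5498 matched budding yeast. The brightest probe set stood for each of 5449 genes, 114 of them on probe sets shared between genes. The 95th percentile of 1746 fission yeast probe sets on the same arrays, 6.002, served as background.

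All 12 arrays were fitted with 1 mean per group in limma 3.58.1 (R 4.3.3), with empirical Bayes moderation and Benjamini-Hochberg adjustment over 5449 genes at 0.05. The F test compared E62A, E62B and E62C. An exact permutation test of 6 against 2 arrays has 28 splits and cannot go below a two-sided p of 0.0714, so it was not used. Named genes are the 10 largest consistent differences in each direction, the 5 per direction with the largest weakest group, the 5 per direction called but not consistent, up to 3 consistent members of each gene list, the genes next to the threshold and 12 fixed genes (galactose genes, RAS2, ERG5, PMA1 and URA3), and the other consistent genes were added as members. The members and lists were chosen with earlier results of these data known. GAL4 was not analysed here, and no sequences are shown.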

Additional observations from a re-analysis of the deposited data

Results flagged for a closer look

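Among the 6 evolved arrays, E62C replicate 2 stood apart as the lowest array for PUT1, GAL2 and GAL7, with a gap to its neighbour of 0.631, 0.791 and 0.71 of the whole range. Chance gives such a gap in about 1 in 20 groups only where arrays are exchangeable, and these come from groups that differ from each other. E62C replicate 2 also had weak hybridisation controls, whose part in these values was not tested.

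The evolved groups differed from each other by the limma F test in most named genes. The distance between the largest and the smallest of the 3 group differences from REF is given here in log2 units. Among genes consistently higher it was 1.36 for OPT2, 1.25 for PLB2, 1.6 for ATF2, 0.82 for DAL3, 1.01 for ERG3, 0.37 for PRY3, 0.6 for ARG7, 0.46 for ARO2 and 0.55 for LEU9. Among genes consistently lower it was 1.87 for STL1, 1.29 for DDR48, 1.1 for PRR2, 1.06 for NQM1, 0.89 for YDR261C-D, 1.05 for YCL021W-A, 0.78 for AFB1, 0.92 for AFR1, 0.8 for ETR1 and 0.58 for YOR192C-C. It was smaller for HXT13 at 0.27, YOL159C-A at 0.33, RAS2 at 0.36, PST1 at 0.31 and MRP8 at 0.35. Among genes that passed the pooled test without being consistent it was 5.91 for YGL007C-A, 1.59 for MEP2, 2.49 for URA3, 1.08 for OPT1, 1.39 for ARO9, 2.47 for SIP18, 2.79 for HSP26, 2.89 for EGO4, 2.31 for DDR2, 1.97 for HSP12, 0.48 for TRM9 and 0.81 for FAT3. Among genes that did not pass it was 0.34 for PGM1, 1.91 for PGM2, 0.52 for ERG5, 0.48 for PMA1, 0.71 for DAL5 and 0.39 for YPR127W.

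Outside the named genes, 1 control probe set for a reporter gene met both conditions for consistency. It lay at 8.53 and 8.68 in E62A, 6.06 and 6.10 in E62B and 9.07 and 8.87 in E62C, 8.72 and 8.44 in SO16 and 8.85 and 9.44 in PGM2, against 5.99 and 6.02 in REF, so both engineered groups also lay above REF, with a pooled evolved difference of 1.88 ± 0.14 (adjusted p = 1.3e-04 by limma).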

How the results depend on the processing

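Counts are given in the order differing, consistent and differing among the evolved groups, against 198, 35 and 1210. Quantile normalisation again gave 55 consistent genes (34 lower), and median centring and cyclic loess each 58 (40 lower). Leaving out the 25% of genes with the lowest levels gave 23 consistent (11 lower). Array weights gave 107 higher, 53 consistent (27 higher) and 2114 among the groups. Fitting only the 8 arrays gave 111 higher and 54 consistent (29 higher). At an adjusted p of 0.01 there were 109 differing (26 higher, 83 lower), 17 consistent (8 and 9) and 612 among the groups. With each group as 1 replicate there were 0 differing (0 higher, 0 lower) and 0 consistent (0 and 0), and the difference among groups was not tested. Without E62C there were 65 consistent (44 lower) and 751 among the groups, without E62C and PGM2, chosen after seeing the data, 62 (42 lower) and 722. Without E62B there were 452 differing (208 higher, 244 lower), 391 consistent (185 and 206) and 723 between groups. Without E62A there were 58 (16 and 42), 9 (7 and 2) and 478. Without the weak arrays there were 471 (216 and 255) and 129 (64 and 65). Defining consistency by sign gave 84 (35 and 49), by an unadjusted p under 0.05 in each group 11 (6 and 5), and by non-overlap alone 287 (173 and 114). Leaving out 1 array at a time gave 81 to 242 differing (9 to 91 higher, 60 to 151 lower), 20 to 56 consistent (5 to 25 and 10 to 31) and 633 to 1327 among the groups. Without E62C, YGL007C-A was -0.15 and URA3 -0.0012, and without E62C and PGM2 these were the same and PGM2 was -0.35 (adjusted p = 0.0123 by limma). Of 1363 recomputed values of 51 named genes, 1156 kept direction and side of the threshold, 180 lost the call, 22 gained it and 5 reversed. The causes were not tested, apart from fewer arrays or genes by construction. Replicate numbers did not pair the arrays, with correlations from -0.35 to 0.54 between groups, and the fit with a replicate block gave 231 differing (83 and 148), 37 consistent (16 and 21) and 1399 among the groups. Signal near the background limits HXT13 and YOL164W-A.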
